A study of Mus musculus with 9 samples.

Results

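The genes described here are those of the Wnt pathway in cultured stem and progenitor cells from the adult hippocampus of the mouse, before and during differentiation: the Wnt ligands, their Frizzled receptors and co-receptors, the secreted antagonists, and the transducers, feedback genes and TCF/LEF factors downstream. They were chosen by name, as every gene whose symbol on the array starts with Wnt, Fzd, Dkk or Sfrp followed by a digit, together with Axin1, Axin2, Lef1, Tcf7, Tcf7l1, Tcf7l2, Lrp5, Lrp6, Ctnnb1, Wif1, Nkd1, Nkd2, Rnf43, Znrf3 and Lgr5. The rule matched 52 genes (98 probes) of 19057 genes listed on the array; no probe was listed for Tcf7, and the symbol rule also took in Fzd10os, a noncoding RNA gene next to Fzd10. Of these, 29 genes (46 probes) were detected on at least 3 of the 9 arrays and could be tested, among 11009 genes tested in all.

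The cells were grown from the hippocampi of adult C57BL6 mice, which the labels also give as dentate gyrus, and RNA was read on Illumina MouseWG-6 v2.0 BeadChips at 3 stages with 3 arrays each. Proliferation was free-floating neurospheres kept with EGF, bFGF and heparin. Early differentiation was cells dissociated from neurospheres, plated on poly-D-lysine and laminin and held 2 days in differentiation medium, and late differentiation the same plated cells held 7 days. Plating and medium therefore changed together between proliferation and the other stages, and the labels give no genetic change at any stage. The labels call the 3 arrays of a stage biological replicates without saying whether they came from separate mice, so the p-values measure the spread between these cultures only. The late differentiation and proliferation arrays lay on 1 BeadChip and the early differentiation arrays on another, so that in both comparisons with early differentiation an effect of the BeadChip cannot be told apart from one of the stage.

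Wnt proteins are lipid-modified ligands that bind a Frizzled receptor together with the co-receptor Lrp5 or Lrp6. In the canonical branch this protects beta-catenin, the product of Ctnnb1, from a destruction complex built on Axin, and beta-catenin then works with TCF/LEF proteins at target genes, of which Axin2, Nkd1, Lgr5, Rnf43 and Znrf3 are widely used as feedback readouts. Other Wnt signals, with Wnt5a as the best known ligand, act through Frizzleds with Ror2 or Ryk and through the planar polarity proteins. In the adult dentate gyrus, Wnt ligands released by astrocytes promote the neuronal differentiation of progenitors, while secreted inhibitors such as Dkk1 and Sfrp proteins hold the pathway back.

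Of the 29 Wnt genes tested, 6 rose and 5 fell in late differentiation compared with proliferation, where calls required a Benjamini-Hochberg adjusted p below 0.05 together with a change of 1.5-fold or more. Frizzled receptors were 5 of these 11: Fzd6 and Fzd10 rose while Fzd1, Fzd5 and Fzd9 fell. The others that rose were Fzd10os, Tcf7l1, Sfrp1 and Wnt5a, and the others that fell were Lgr5 and Sfrp2. The 11 calls were 37.9% of the Wnt genes tested, against 33.7% of all 11009 genes (17.6% called higher and 16.1% called lower), so the share of Wnt genes called was near that of the array as a whole. Without normalization between the arrays, a setting that moved the median of all genes to -0.31, 2 Wnt genes rose and 8 fell. In early differentiation compared with proliferation 5 Wnt genes rose (Fzd6, Tcf7l1, Wnt5b, Wnt5a and Wnt7a) and 2 fell (Fzd1 and Lgr5). These were 24.1% of the Wnt genes, against 31.8% of all genes (16.7% higher and 15% lower), and without normalization, with the median of all genes at -0.41, 2 rose and 7 fell. Between late and early differentiation Fzd10 was higher and Wnt7a lower in late differentiation, that is 6.9% of the Wnt genes against 3.89% of all genes (1.54% higher and 2.34% lower). With the replicate number as a block Fzd10os and Fzd5 were called as well in this last comparison. The share of 3.89% belongs to the fit without a block, so these added calls cannot be set against it. The median log2 fold change of the 29 genes was -0.04 in late differentiation and 0.06 in early differentiation, each relative to proliferation, beside 0.01 and 0.00 over all genes. The arrays measured RNA of whole cultures, in which fewer cells of a type and less RNA per cell cannot be told apart.

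**Figure D1:**
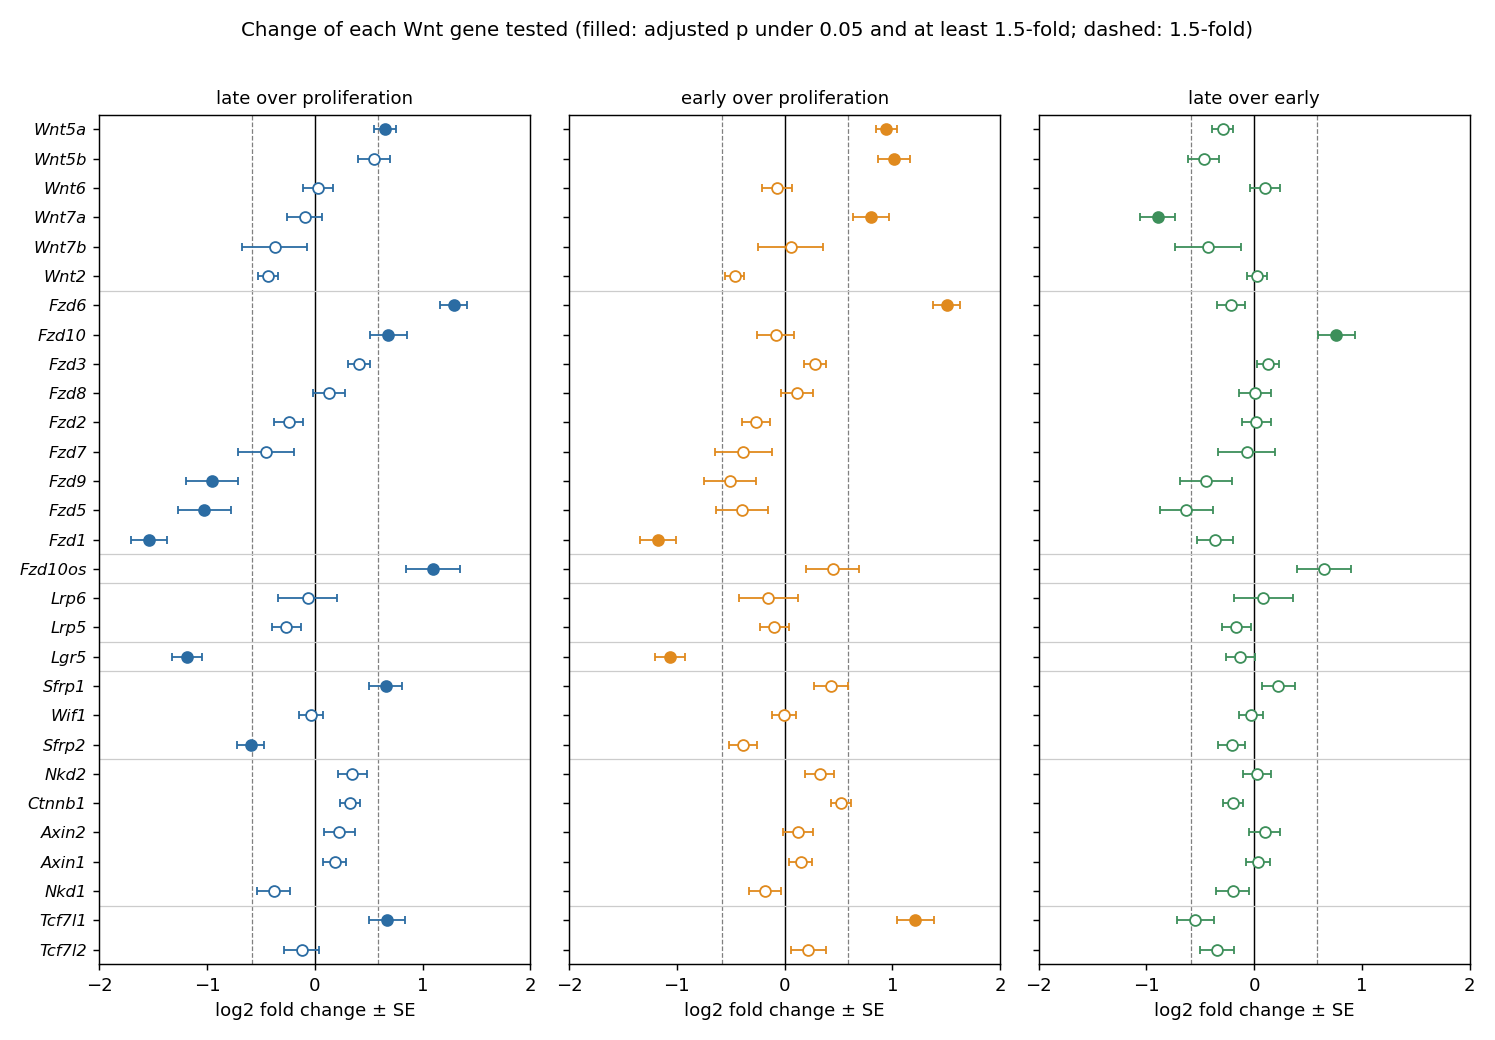
Log2 fold change with its standard error (n = 3 arrays a stage) of the 29 Wnt genes tested, grouped by role, for late over proliferation, early over proliferation and late over early differentiation. Filled points passed an adjusted p of 0.05 and the 1.5-fold minimum drawn as dashed lines; 11, 7 and 2 genes did so.

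Short stretches of promoter sequence were examined for the members because Wnt ligands and receptors can themselves be targets of TCF/LEF proteins, which bind the core letters CTTTGA, most often as CTTTGAT. In RefSeq (build GRCm38.p6), 17 of the 29 genes tested had a promoter entry, with 21 start sites between them. In the 250 bases before the start, CTTTGAT on either strand was found in 1 of these 21 windows (4.76%), against 3.21% of 32851 promoter windows in the table. The shorter CTTTGA, which every CTTTGAT also contains, was found in 2 (9.52%), against 13.8% of all windows. Both windows are shown since each belongs to a gene that was called in these cultures, Wnt5b and Fzd1, and the promoter of Fzd10, which held neither motif, is shown because the region lies between 2 neighbouring genes, Fzd10 and Fzd10os, that were both higher in late differentiation than in proliferation. The sequences run 5′ to 3′ on the strand of the gene and end at the base before the start, with the motif in capitals; in Fzd1 it lies on the opposite strand and so reads as its reverse complement. For Wnt5b the window belongs to 1 of 3 listed starts (chr6:119449387-119449636, minus strand), for Fzd1 to chr5:4758217-4758466 (minus strand) and for Fzd10 to chr5:128600856-128601105 (plus strand). The arrays did not show which start of Wnt5b was in use.
Wnt5b: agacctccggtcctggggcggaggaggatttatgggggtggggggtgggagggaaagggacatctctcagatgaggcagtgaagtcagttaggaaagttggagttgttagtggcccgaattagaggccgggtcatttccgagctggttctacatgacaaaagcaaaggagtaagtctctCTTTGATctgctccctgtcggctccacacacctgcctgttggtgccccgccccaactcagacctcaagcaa
Fzd1: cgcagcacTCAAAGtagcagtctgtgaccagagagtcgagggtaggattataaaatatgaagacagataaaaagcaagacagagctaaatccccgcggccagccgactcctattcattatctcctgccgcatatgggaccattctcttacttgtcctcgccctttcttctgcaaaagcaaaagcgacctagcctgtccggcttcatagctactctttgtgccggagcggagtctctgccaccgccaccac
Fzd10: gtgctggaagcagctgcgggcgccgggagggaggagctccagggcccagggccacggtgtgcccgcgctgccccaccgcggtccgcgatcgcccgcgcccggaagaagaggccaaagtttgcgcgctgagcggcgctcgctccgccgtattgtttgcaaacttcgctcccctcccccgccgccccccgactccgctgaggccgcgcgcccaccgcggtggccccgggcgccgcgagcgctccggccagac
The motif began 71 bases before the start of Wnt5b and 242 bases before that of Fzd1. Windows of Dkk1, Lef1 and Wnt11, genes of the rule not detected enough to test, also held a motif. A match of letters is a description of these windows and not a bound site.

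Among the ligands, 6 of 19 genes listed on the array were detected well enough to test. The 3 that were called rose at day 2, and Wnt5a was called at day 7 as well. Of these, only Wnt7a was called between late and early differentiation. Wnt5a, a ligand known above all for signalling without beta-catenin, read 9.04, 9.20 and 9.18 log2 units in proliferation, 10.09, 10.17 and 9.99 in early differentiation and 9.85, 9.85 and 9.68 in late differentiation. Every array of either differentiation stage lay above every proliferation array. The rise was 0.94 ± 0.10 on the log2 scale in early differentiation (SE, adjusted p = 1.87e-05) and 0.65 ± 0.10 in late differentiation (adjusted p = 0.000232), or 1.92-fold and 1.57-fold. The gene's 2 dimmer probes gave 0.81 and 0.41 at day 2 and 0.26 and 0.29 at day 7, where late differentiation replicate 2 was low on both, and of these 4 values 1 was called, the 0.81 (adjusted p = 0.022). With the brightest probe replaced by the mean of the 3 the day 7 change was 0.40 and no longer called. Without normalization between arrays the changes of Wnt5a were 0.26 in early and 0.12 in late differentiation, neither called. Late minus early differentiation was -0.29 for Wnt5a (adjusted p = 0.101).

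Wnt5b, the close relative of Wnt5a, read 5.68, 5.45 and 5.61 in proliferation, 6.54, 6.74 and 6.50 in early differentiation and 5.89, 6.03 and 6.45 in late differentiation. It rose by 1.02 ± 0.15 in early differentiation compared with proliferation (adjusted p = 0.00018), a 2.02-fold change, or 0.54 and not called without normalization between arrays. The day 7 values also lay above all 3 proliferation values, and the difference of 0.55 ± 0.15 had an adjusted p of 0.00844 but stayed just under 1.5-fold. It was called in 7 of 25 alternative settings, such as the second deposited table (0.76) and the fit without late replicate 1 (0.66). Late minus early differentiation was -0.47 (adjusted p = 0.0797).

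Wnt7a, a ligand known from the cerebellum and from neural progenitors, was the member with the plainest transient pattern. It read 6.72, 6.51 and 6.63 in proliferation, 7.56, 7.62 and 7.09 in early differentiation and 6.24, 6.62 and 6.72 in late differentiation. The early arrays lay above all others, while late differentiation and proliferation overlapped. Wnt7a rose by 0.80 ± 0.16 in early differentiation compared with proliferation (adjusted p = 0.00185) and was lower by -0.90 ± 0.16 in late compared with early differentiation (adjusted p = 0.0116). The difference between late differentiation and proliferation was -0.09 with a 95% interval of -0.46 to 0.27. Since the early arrays were alone on their BeadChip, both called differences of Wnt7a rest on a contrast in which chip and stage cannot be told apart, and the early rise was 0.20 and not called when the arrays were left without normalization. The difference between late and early differentiation was no longer called without early differentiation replicate 2 (-0.80).

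The remaining ligands did not pass. Wnt7b read 7.78, 7.75 and 8.80 in proliferation, 7.77, 7.93 and 8.80 in early differentiation and 7.75, 7.71 and 7.75 in late differentiation. Replicate 3 was thus about 1 log2 unit above the others in proliferation and early differentiation but not in late differentiation, and the second Wnt7b probe was also highest in replicate 3 in each stage. The log2 fold changes were -0.37 in late and 0.06 in early differentiation compared with proliferation, both with an SE of 0.30. Wnt2 was detected on all 3 proliferation arrays and on none of the other 6. It passed the filter only through proliferation, the stage where it was high, so its fall and p-value are partly set by the filter. Wnt2 was at least 1.14-fold lower in late differentiation (adjusted p = 0.00176) and at least 1.16-fold lower in early differentiation. Its fitted changes of -0.44 and -0.46 were under the 1.5-fold minimum. With background subtraction and 75th percentile scaling in their place they were -2.64 and -2.83 and called. That setting raised subtracted values under 1 to 1 before the log, so sizes that involve an undetected stage can reflect this floor. Wnt6 was dim, with changes of 0.03 at day 7 and -0.07 at day 2. The 13 ligand genes without enough detection were Wnt1, Wnt2b, Wnt3, Wnt3a, Wnt4, Wnt8a, Wnt8b, Wnt9a, Wnt9b, Wnt10a, Wnt10b, Wnt11 and Wnt16, and of these Wnt8b came nearest with 2 of 9 arrays, both of early differentiation.

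Frizzleds are the membrane-spanning receptors that bind Wnt directly, and 9 of the 10 Fzd receptor genes listed were tested, all but Fzd4. Fzd6, a receptor best known for planar polarity, had the greatest rise of the 29 genes in both comparisons with proliferation. It read 4.59, 4.66 and 4.86 in proliferation, 6.33, 6.18 and 6.10 in early differentiation and 6.03, 6.18 and 5.76 in late differentiation. The stages of differentiation did not overlap with proliferation, at 1.29 ± 0.13 in late (adjusted p = 1.23e-05) and 1.503 ± 0.13 in early differentiation (adjusted p = 4.4e-06), or 2.44-fold and 2.83-fold. A second, dimmer Fzd6 probe rose too, by 0.81 and 0.71 (adjusted p = 0.000354 and 0.000987).

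Fzd1, a receptor used mostly in canonical signalling, had the greatest fall in both. It read 6.90, 7.01 and 6.95 in proliferation, 5.78, 5.54 and 6.003 in early differentiation and 5.36, 5.10 and 5.77 in late differentiation. All 6 differentiation arrays lay below all 3 proliferation arrays. The fall was by 1.54 ± 0.17 in late (adjusted p = 2.21e-05) and by 1.18 ± 0.17 in early differentiation (adjusted p = 0.000168), or 2.91-fold and 2.26-fold lower. The calls of Fzd1 and Fzd6 held in each of the 25 alternative settings.

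Fzd5 and Fzd9 were called lower at day 7 compared with proliferation. Fzd5 read 7.98, 7.99 and 8.25 in proliferation, 7.21, 7.66 and 8.17 in early differentiation and 6.62, 7.11 and 7.42 in late differentiation. Late differentiation lay below proliferation on every array, by 1.03 ± 0.24 (adjusted p = 0.00438), whereas the early arrays overlapped with both other stages. A dim second probe of Fzd5 gave -0.27 at day 7 and -0.40 at day 2, below the fold minimum. Fzd9 read 5.77, 5.66 and 4.73 in proliferation, 5.13, 4.89 and 4.63 in early differentiation and 4.50, 4.32 and 4.49 in late differentiation. Late differentiation was lower by 0.95 ± 0.24 (adjusted p = 0.00636), with proliferation replicate 3 about 1 log2 unit under the other 2 and yet above every late array. With an offset of 50 this change was -0.47, and with the second deposited table -0.81, neither called. The early values of -0.40 for Fzd5 and -0.51 for Fzd9 did not pass with all arrays, but Fzd5 was called at -0.64 without early replicate 3 and Fzd9 at -0.84 without proliferation replicate 3. The difference between late and early differentiation was not called for either, at -0.63 (adjusted p = 0.146) and -0.45 (adjusted p = 0.295).

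Fzd10 and its neighbour Fzd10os had their highest means at day 7. Fzd10, a Frizzled studied mainly in the dorsal neural tube of the embryo, read 6.91, 7.24 and 7.50 in proliferation, 6.97, 7.00 and 7.44 in early differentiation and 7.81, 7.80 and 8.08 in late differentiation. The late arrays were above all others, by 0.68 ± 0.17 compared with proliferation (adjusted p = 0.00633) and by 0.76 ± 0.17 compared with early differentiation (adjusted p = 0.0265), while early differentiation and proliferation overlapped (-0.08). Fzd10os read 5.85, 5.89 and 6.48 in proliferation, 6.06, 6.46 and 7.04 in early differentiation and 6.91, 7.20 and 7.39 in late differentiation. It rose by 1.09 ± 0.25 in late differentiation compared with proliferation (adjusted p = 0.00331), a 2.14-fold change. Late minus early differentiation was 0.65 ± 0.25 for Fzd10os (adjusted p = 0.142). In RefSeq the genes are neighbours and do not overlap. The call of Fzd10 against early differentiation was lost without any 1 of the 3 late arrays (0.67 to 0.81), early replicate 1 (0.68) or early replicate 2 (0.69), and that against proliferation without proliferation replicate 1 (0.52). The probes of Fzd10 disagreed, since the 2 dimmer ones gave 0.07 and -0.17 for late differentiation compared with proliferation, neither called. Against early differentiation they gave -0.08 and 0.03, again not called, so both rises of Fzd10 rest on 1 of 3 probes.

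Fzd3, which is known for axon guidance and planar polarity, also differed between its probes. The brightest gave 0.41 in late (adjusted p = 0.00628) and 0.28 in early differentiation, both under 1.5-fold, and -0.09 and -0.34 without normalization between arrays. Another gave 1.12 at either stage (adjusted p = 2.06e-05 at day 7), with 6.03, 5.77 and 5.93 in proliferation, 7.04, 6.86 and 7.19 in early differentiation and 6.92, 6.97 and 7.18 in late differentiation, so that on this probe the stages of differentiation were clear of proliferation. The other Frizzleds were not called, with late and early changes of -0.24 and -0.26 for Fzd2, -0.45 and -0.38 for Fzd7, and 0.13 and 0.12 for Fzd8.

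**Figure D2:**
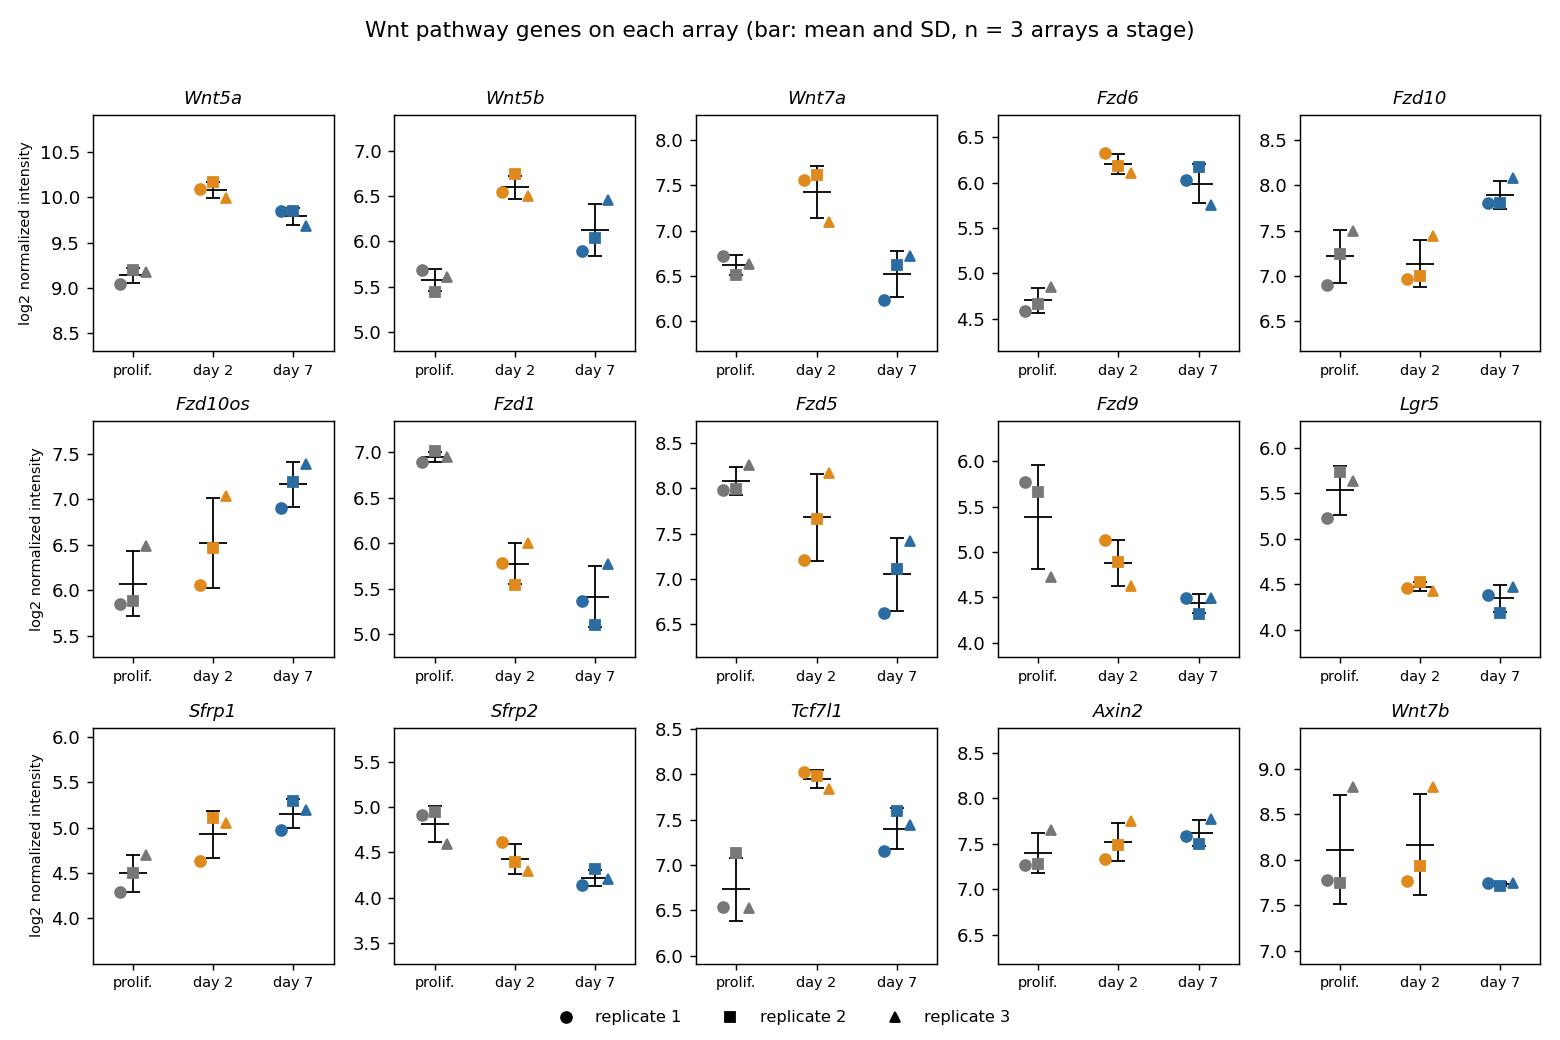
Log2 normalized intensity on each array of the 13 Wnt genes called in at least 1 comparison, with Axin2 and Wnt7b, at the 3 stages in order of time. Symbols mark the replicate number and bars the mean and SD (n = 3); each panel spans 2.6 log2 units, and Fzd1 and Lgr5 lie lower, and Fzd6 and Wnt5a higher, on all 6 differentiation arrays.

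The co-receptors were not called. Lrp5 was detected on none of the late arrays and on 2 of 3 in each other stage, with fitted changes of -0.27 in late and -0.10 in early differentiation. Lrp6 gave -0.07 and -0.15, with a spread among the late arrays (5.45, 4.26 and 5.23) wider than either change. Lgr5, the R-spondin receptor and a beta-catenin target that marks stem cells in several tissues, fell. It read 5.22, 5.74 and 5.64 in proliferation, 4.46, 4.53 and 4.43 in early differentiation and 4.38, 4.19 and 4.47 in late differentiation. All 6 differentiation arrays lay below the proliferation arrays, and the probe was detected on 3 of 3 proliferation, 2 of 3 early and 1 of 3 late arrays. Lgr5 was lower by 1.19 ± 0.14 in late (adjusted p = 3.51e-05) and by 1.06 ± 0.14 in early differentiation (adjusted p = 8.99e-05). With an offset of 50 in place of 16 added before the log, which shrinks changes of dim probes, the values were -0.57 and -0.52 and missed the fold minimum. Rnf43 and Znrf3, the membrane ubiquitin ligases that remove Frizzleds from the cell surface, were not detected on enough arrays to test.

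Secreted antagonists bind Wnt (the Sfrp proteins and Wif1) or the Lrp co-receptors (Dkk proteins such as Dkk1). Of the 9 genes listed under this role 3 were tested. Sfrp1 read 4.29, 4.50 and 4.70 in proliferation, 4.63, 5.10 and 5.05 in early differentiation and 4.97, 5.29 and 5.19 in late differentiation. It rose by 0.66 ± 0.15 in late differentiation compared with proliferation (adjusted p = 0.00422) without overlap; the early difference of 0.43 (adjusted p = 0.0365) was under the fold minimum, and a second probe gave 0.01 in late differentiation. The late call was lost without proliferation replicate 1 (0.55). Sfrp2 went the other way. It read 4.92, 4.95 and 4.59 in proliferation, 4.61, 4.39 and 4.29 in early differentiation and 4.15, 4.32 and 4.20 in late differentiation, where it was not above background on any array. It was therefore at least 1.29-fold lower in late differentiation, with a fitted change of -0.59 ± 0.13 (adjusted p = 0.00228) that lay close to the fold minimum and under it without proliferation replicate 1 (-0.55), proliferation replicate 2 (-0.53) or late replicate 1 (-0.56). With only 1 of 3 early arrays detected, Sfrp2 passed the filter mainly through proliferation, where it was high. Wif1 was dim in every stage, with a change of -0.04 in late differentiation and of a smaller size in early differentiation. Dkk1, Dkk2, Dkk3, Dkk4, Sfrp4 and Sfrp5 were not detected on enough arrays.

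None of Axin1, Axin2, Ctnnb1, Nkd1 and Nkd2 was called. Axin2, the feedback gene most often read as a sign of canonical signalling, had 7.27, 7.28 and 7.65 in proliferation, 7.34, 7.49 and 7.75 in early differentiation and 7.59, 7.50 and 7.78 in late differentiation, with replicate 3 highest in each stage. The stages overlapped. The changes were 0.22 ± 0.14 in late (95% interval -0.09 to 0.54, adjusted p = 0.214) and 0.12 ± 0.14 in early differentiation (-0.19 to 0.44), so that neither interval reached 1.5-fold. Axin1, the scaffold of the destruction complex, gave 0.18 and 0.15. Without normalization between arrays the values turned, to -0.29 and -0.52 for Axin2, -0.32 and -0.49 for Axin1 and -0.27 and -0.22 for Ctnnb1, none of them called. Ctnnb1 gave 0.32 (adjusted p = 0.0135) and 0.52 (adjusted p = 0.000853), without overlap and under 1.5-fold; another of its 4 kept probes was lower in late differentiation, by 0.78 (adjusted p = 0.0062). Nkd1 and Nkd2, which bind Dishevelled and damp the signal, gave -0.38 (adjusted p = 0.0554) and 0.35 (adjusted p = 0.0438) in late differentiation, Nkd2 having been undetected on all proliferation arrays and so at least 1.12-fold higher. Nkd2 passed the filter only through the differentiation arrays, so its rise and p-value are partly set by the filter. In early differentiation the values were -0.18 for Nkd1 and 0.32 for Nkd2. With background subtraction and 75th percentile scaling Nkd2 was called higher, at 2.23 in late and 2.38 in early differentiation. As for Wnt2, these sizes can reflect the floor of 1 in that setting.

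Of the TCF/LEF factors, Tcf7l1, which acts mostly as a repressor of Wnt targets, rose. It read 6.54, 7.13 and 6.53 in proliferation, 8.02, 7.98 and 7.84 in early differentiation and 7.16, 7.60 and 7.44 in late differentiation. The 3 stages did not overlap, although proliferation replicate 2 came within a few hundredths of the lowest late array. The rise was 1.21 ± 0.17 in early (adjusted p = 0.00016) and 0.67 ± 0.17 in late differentiation (adjusted p = 0.00678), or 2.32-fold and 1.59-fold, and late minus early differentiation was -0.55 (adjusted p = 0.0826). The late change was 0.57 and under the fold minimum without proliferation replicate 1, proliferation replicate 3 or late replicate 2, and 0.19 without normalization between arrays. Tcf7l2 gave -0.12 and 0.22, not called. Lef1, whose 4 probes were above background on no array, could not be tested.

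**Figure D3:**
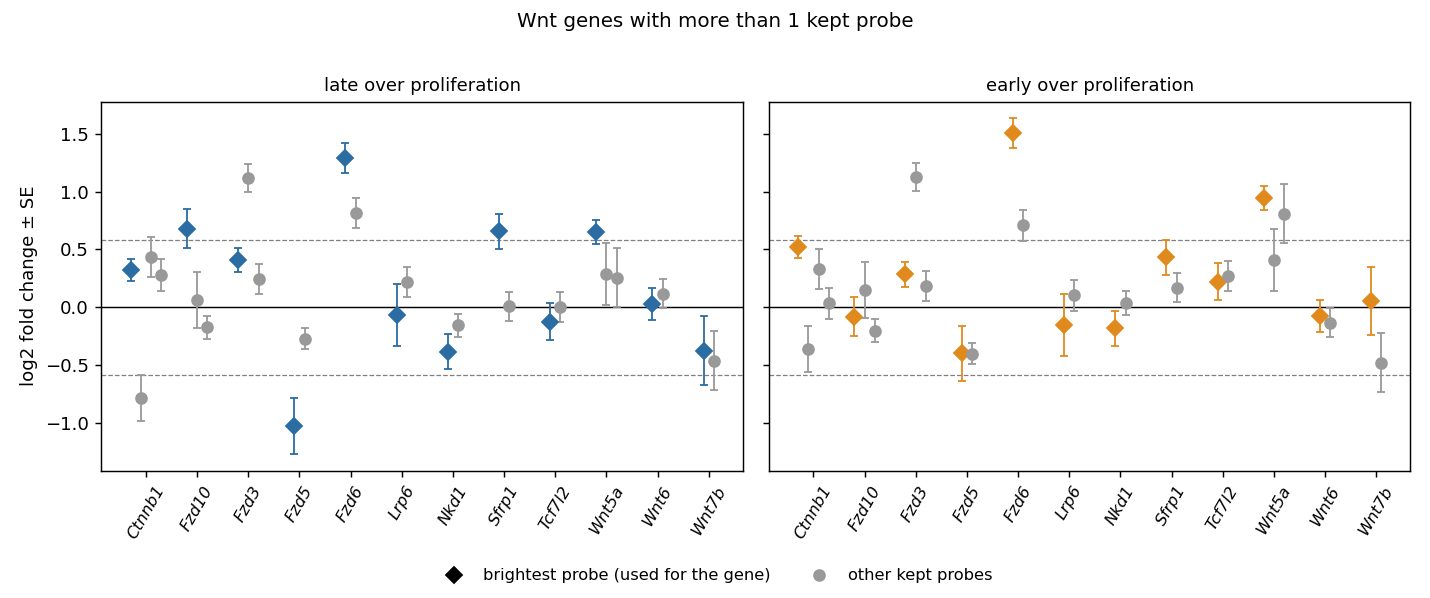
Log2 fold change with its standard error (n = 3 arrays a stage) of every kept probe of the 12 Wnt genes that had more than 1, for late over proliferation (left) and early over proliferation (right). Diamonds are the brightest probe, used for the gene, and circles the others; probes of Fzd6 lie on the same side of 0, while those of Fzd10, Ctnnb1 and Sfrp1 differ at day 7.

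Other genes of the pathway were counted in lists set by role. Over all genes 17.6% rose and 16.1% fell in late differentiation, and 16.7% rose and 15% fell in early differentiation, and these shares stand beside each count that follows. In planar polarity 5 of 10 genes tested rose and none fell in late differentiation compared with proliferation, and 6 of 10 rose in early differentiation, with medians of 0.43 and 0.60 beside 0.01 and 0.00 over all genes. Vangl2 and Daam1, both among the 6, were at -0.05 and -0.09 without normalization. Celsr1, an atypical cadherin at the core of planar polarity, rose by 1.60 ± 0.11 in late (adjusted p = 8.23e-07) and 1.86 ± 0.11 in early differentiation, and Prickle2 by 1.34 ± 0.12 and 1.70 ± 0.12. Ror2 and Ryk, which can pair with Frizzleds in Wnt5a signalling, went down. Ror2 fell by 1.54 ± 0.18 in late (adjusted p = 4.48e-05) and 1.42 ± 0.18 in early differentiation, and Ryk by 0.83 and 0.62. Tspan12, a partner of Fzd4 in norrin signalling, fell by 0.95 in late differentiation. In all, 3 of 5 genes tested in that list of other receptors and R-spondins fell in late differentiation and none rose, while 2 fell and 1 (Lrp4, 0.59, or -0.02 without normalization) rose in early differentiation, with medians of -0.83 and -0.47. All 4 R-spondins, Ror1, Lgr4 and Lgr6 were not detected on enough arrays.

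Of the 7 genes for secretion and modification of Wnt proteins, 3 rose and none fell in late differentiation: Gpc4 by 1.24 ± 0.25, Porcn, the acyltransferase that lipid-modifies Wnt proteins, by 1.05 ± 0.11 (adjusted p = 1.71e-05), and Wls, their carrier to the cell surface, by 0.88. In early differentiation Porcn was the 1 gene called (1.11 ± 0.11), and the medians of the 7 were -0.06 and -0.05. Among other extracellular inhibitors and norrin, with 4 of 11 tested, Ndp, which encodes the Fzd4 ligand norrin, rose in late (0.61) and early differentiation (0.82), beside medians of 0.03 and 0.35 for the list. Draxin, an inhibitor and axon guidance protein, read 4.25, 4.26 and 4.51 in proliferation, 5.68, 5.60 and 6.19 in early differentiation and 4.28, 4.31 and 4.54 in late differentiation. It rose by 1.48 ± 0.16 at day 2 and was lower by -1.45 ± 0.16 at day 7 compared with day 2 (adjusted p = 0.00109), again with the early arrays on their own BeadChip.

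In cytoplasmic transduction 1 of 17 genes tested rose and 3 fell in late differentiation. Ccdc88c, a Dishevelled-binding protein, rose by 1.49 ± 0.21, Frat2 fell by 0.99 ± 0.15, and Dact1, undetected on all 6 differentiation arrays, was at least 1.62-fold lower in late and at least 1.64-fold lower in early differentiation. Dact1 passed the filter only through proliferation, so its fall is partly set by the filter. In early differentiation 1 rose and 2 fell, and the medians were -0.14 and -0.20. Among 16 nuclear cofactors none rose and 3 fell in late differentiation, and these 3 were members of the Groucho (TLE) family. Tle2 fell by 2.05 ± 0.11 (adjusted p = 1.31e-07), Tle5 by 1.22 ± 0.15 and Tle1 by 0.95 ± 0.20. In early differentiation 3 fell (Tle2 by 1.73, Tle5 by 1.47, Ruvbl2 by 0.88) and 1 rose (Tle4, 0.62, or -0.09 without normalization), with list medians of -0.08 and -0.09, and Tle1 was lower in late than in early differentiation (-0.79, adjusted p = 0.0374).

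Of 19 genes known as Wnt targets 11 were tested, of which none rose and 3 fell in late differentiation, and 2 rose and 3 fell in early differentiation, at medians of -0.06 and -0.09. The greatest fall was that of Ccnd1, the cyclin D1 gene, with 13.22, 13.27 and 13.49 in proliferation, 8.97, 9.05 and 9.50 in early differentiation and 8.78, 9.02 and 8.56 in late differentiation, lower by 4.54 ± 0.16 in late (adjusted p = 9.84e-09) and by 4.15 ± 0.16 in early differentiation. Ccnd2 fell by 1.54 and 1.34. Both cyclins serve cell division and have many regulators besides beta-catenin. Msx1 rose by 1.49 ± 0.43 and Tnfrsf19 by 0.84 ± 0.14 in early differentiation.

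**Figure D4:**
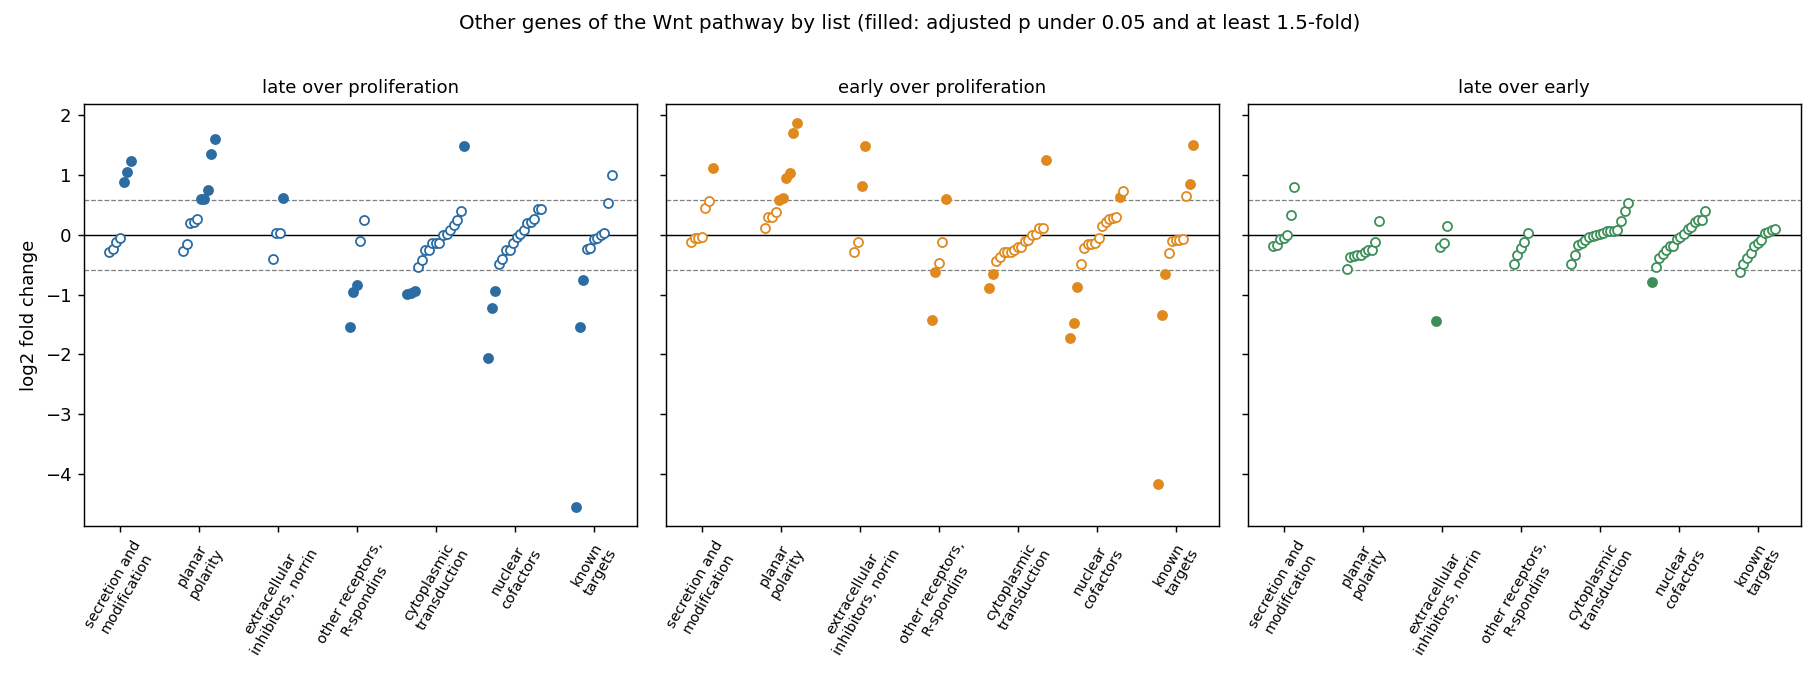
Log2 fold change of each tested gene of 7 lists of other Wnt pathway genes, for late over proliferation, early over proliferation and late over early differentiation. Each point is 1 gene and filled points were called; 5 and 6 planar polarity genes rose in the comparisons with proliferation, while the lowest point is Ccnd1.

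Markers of cell types moved between the same stages, beside the shares of all genes given for the pathway lists. Of 10 astrocyte markers 7 rose and none fell at either stage, Gfap by 4.35 in late and 5.59 in early differentiation, with a summed linear intensity of 10374 to 15834 in proliferation, 27728 to 30841 in early and 26361 to 28564 in late differentiation. All 5 ependymal markers tested rose at both stages (186.42 to 220.52 in proliferation, 1251.1 to 1649.2 in early and 1634.5 to 2065 in late differentiation), Enkur by 4.24 and 3.95. All 5 markers of dividing cells fell (1635 to 2191.7 in proliferation, 170.93 to 192.75 in early and 145.72 to 180.44 in late differentiation), and Cdk1 fell by 4.31 in late and fell by 3.98 in early differentiation. Of 7 neural stem cell markers 4 rose and 2 fell in late differentiation, and 4 rose and 3 fell in early differentiation (4735.8 to 5860.3 in proliferation, 11217 to 12191 in early and 11602 to 12987 in late differentiation), Prom1 and Sox9 being the greatest risers and Hes1 and Fabp7 the greatest fallers. Of 7 neuron markers 1 fell in late differentiation (Gad1), 1 rose (Rbfox3) and 1 fell (Gad1) in early differentiation, and Neurod1, Snap25 and Stmn2 were not detected on enough arrays. Of 6 oligodendrocyte lineage markers 2 rose and 2 fell in late and 3 rose and 2 fell in early differentiation (8720.1 to 11264 in proliferation, 5216.4 to 6277.7 in early and 2642.6 to 3906.1 in late differentiation). Microglial and endothelial lists had 1 tested gene each, not called, with their defining markers Cx3cr1, P2ry12, Pecam1 and Cldn5 not detected on enough arrays. Of 3 mural genes tested Acta2 rose, by 2.20 in late and 2.70 in early differentiation, at list medians of 0.21 and 0.07, and Pdgfrb and Rgs5 were not detected on enough arrays. Pdgfra, the 1 gene tested of the fibroblast list, and Folr1, 1 of 2 tested of the choroid plexus list, rose at both stages, while Col1a1, Col1a2, Dcn, Lum, Ttr and Kl were not detected on enough arrays. Pdgfra is also on the oligodendrocyte lineage list and so was counted there too. It was dim, at a linear intensity of 19.4 to 22.6 in proliferation, 44.1 to 58.1 in early and 26.5 to 48.2 in late differentiation. The part of these shifts in the Wnt gene values was not tested. The number of probes detected was 18604 to 18963 on the proliferation, 18644 to 19865 on the early and 18310 to 19919 on the late arrays. The mean intensity before normalization was higher on the proliferation arrays, at 217.69 to 227.51. It was 156.57 to 170.75 on the early and 172.55 to 179.74 on the late arrays.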

How the data were processed

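The authors scanned the BeadChips, summarised the beads of each probe in GenomeStudio and deposited the resulting intensity of every probe with a detection p-value, not normalized between arrays. Per the paper's methods they worked from background-subtracted values in GeneSpring. A second deposited table holds intensities that are a straight-line function of the first on each array, with a common mean of 106.89 (largest deviation 0.0105), and served as an alternative. GenomeStudio's version is not given in the sources used here, and no genome build applies to the values.

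All 45281 probes were background-corrected with normexp from the detection p-values, given an offset of 16, quantile-normalized and put on the log2 scale (limma 3.58.1, R 4.3.3). Probes with a detection p below 0.05 on at least 3 arrays were kept (20935). Symbols came from the platform annotation, in which 34885 probes had 1 symbol, 18 several and 10378 none. The brightest kept probe stood for its gene, and probes of a Wnt gene are reported where a call differed between them. Some second probes differed in sign without a call. Lrp6 had 0.22 on its second probe in late differentiation, and Wnt7b had -0.48 and Nkd1 0.04 in early differentiation, each compared with proliferation. Levels are not compared between genes. A linear model estimated the 3 stage means from all 9 arrays with moderated errors, 3 contrasts were tested, and p-values were adjusted by Benjamini-Hochberg over 11009 genes. SE and 95% intervals come from this fit. Where a probe was detected on no array of a stage the fold is a bound ("at least"), against the higher of the lowest detected signal and the probe's own. The fit was tested on simulated data. The Wnt genes, the pathway lists and the marker lists were chosen with earlier results of these data known. All Wnt genes tested are named, with per-array values for those called, and in the other lists the genes with the largest called changes. Arrays with the same number deviated together over all genes between early differentiation and proliferation (r = 0.204 to 0.308) and between late and early differentiation (0.172 to 0.386), but less between late differentiation and proliferation (0.0642 to 0.142), so a fit with the number as a block was run as an alternative. Other alternatives changed the normalization, the offset, the filter, the probe for a gene, the fold minimum and the arrays included. Precision is limited by 3 arrays a stage.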

Additional observations from a re-analysis of the deposited data

Results flagged for a closer look

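The contrast of late with early differentiation, tested over all genes, was called for 2 Wnt genes. Fzd10 was higher in late than in early differentiation by 0.7594 log2 units (adjusted p = 0.0265), with 7.81, 7.80 and 8.08 in late and 6.97, 7.00 and 7.44 in early differentiation. The 2 dimmer probes of Fzd10 gave -0.08 and 0.03 for this contrast, neither called, and the call was lost in 11 of 25 alternative settings. Wnt7a differed by -0.8971 (adjusted p = 0.0116), with 6.24, 6.62 and 6.72 in late and 7.56, 7.62 and 7.09 in early differentiation. The early arrays were on a BeadChip of their own, so chip and stage cannot be told apart here.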

How the results depend on the processing

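Over 25 alternative settings the 87 changes of Wnt genes gave 2157 values, of which 2054 stayed on their side of the thresholds. With the sign kept, 56 lost a call and 46 gained one, and 1 more lost its call with the sign changed. In 83 of the 2157 the sign changed, 15 of these without normalization; for a called change this happened in 1, Fzd10 in late differentiation compared with proliferation (-0.1738 with the dimmest kept probe). The calls lost most often were Fzd10 in late versus early differentiation (11 settings) and Tcf7l1 (8), Sfrp1 (7) and Sfrp2 (6) in late differentiation versus proliferation. In that comparison Fzd10 lost its call in 5 settings besides the 1 in which its sign changed. What separated the settings was not tested. Dim probes limit Lgr5, Fzd9, Sfrp1, Sfrp2, Wnt2 and Nkd2, whose changes depend on the offset or on the background correction.

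In late differentiation versus proliferation (6 Wnt genes higher and 5 lower; all genes 1938 and 1776), no normalization gave 2 and 8 (all genes 1026 and 3754), an offset of 50 gave 3 and 2, the deposited values 3 lower, no fold minimum 10 higher (3026 and 2916) and a 2-fold minimum 2 and 3 (951 and 878). In early differentiation versus proliferation (5 and 2; all genes 1843 and 1656), no normalization gave 2 and 7 (804 and 4305), an offset of 50 gave 1 lower, no fold minimum 8 and 4 (2915 and 2833) and a 2-fold minimum 3 higher (925 and 736). In late versus early differentiation (1 and 1; all genes 170 and 258), 0 Wnt genes were higher with 75th percentile scaling, the value table, no filter, the dimmest probe, the mean of probes or a 2-fold minimum, and 0 were lower with 75th percentile scaling or a 2-fold minimum. All genes were 307 and 153 without normalization, 90 and 131 with an offset of 50, 84 and 153 with 75th percentile scaling, 170 lower with the value table, 374 and 394 with no fold minimum and 40 and 84 with a 2-fold minimum. Without any 1 array, or without replicate 3 of every stage (added after the data were seen), Wnt genes higher and lower numbered 4 to 7 and 4 to 6, 5 to 6 and 2 to 3, and 0 to 2 and 0 to 4 in the 3 comparisons in this order, and all genes in the last 101 to 295 and 148 to 326. With the replicate block, late versus early differentiation had 2 Wnt genes higher and 2 lower, and no other Wnt call changed. Where no count of all genes stands beside a Wnt count here, calls lost or gained cannot be read as particular to Wnt genes.

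Without normalization 4 other pathway genes changed direction in early differentiation: Lrp4 (-0.0203), Tle4 (-0.0874), Vangl2 (-0.0454) and Daam1 (-0.0861). With the dimmest probe Lrp4 (-0.1057) and Tle4 (-0.288) did.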
